A study of Mus musculus with 19 samples.

Results

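The 10 genes described here encode parts of the 2 junctions that hold epithelial cells to each other, the desmosome and the adherens junction. They are the desmosomal cadherin genes *Dsg2*, *Dsg3*, *Dsc2* and *Dsc3*, the plaque genes *Jup*, *Pkp1*, *Pkp3* and *Dsp*, the membrane protein gene *Perp* and the adherens junction cadherin gene *Cdh1*. They were taken by symbol, and all 10 were among the 24552 genes with a unique symbol in both the cornea table and the conjunctiva table. The 19 RNA sequencing libraries came from C57BL/6 mice by the labels (C57BL/6J in the study's methods), all female by the study's methods, and the labels name no transgene or deleted gene in any group. Mice ate freely (AL, for ad libitum) or were put on calorie restriction (CR), in which the daily ration was cut in steps, held down for months and given shortly before the dark phase. The cornea groups held 5 libraries per diet, and the conjunctiva groups held 4 from AL mice and 5 from CR mice. All titles carry the marks 6M and 50W, which the labels do not explain, so no age is read from them. By the study's methods the cornea samples were epithelium scraped from the eye, the conjunctiva was cut out whole, and several tissues were taken from each mouse. Libraries are named below by diet and by the number in their title.

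Desmosomes are spot-like junctions that tie the keratin filaments of neighbouring cells together. Desmogleins and desmocollins, their transmembrane cadherins, bind each other across the gap between cells. Inside the cell, plakoglobin (*Jup*) and the plakophilins (*Pkp1*, *Pkp3*) attach the cadherin tails to desmoplakin (*Dsp*), which grips the keratins. In stratified epithelia such as those of the eye surface the mix of desmosomal cadherins changes from the basal to the upper cell layers, and desmoglein 1 is typical of the more differentiated layers. PERP is a tetraspan protein that desmosomes of stratified epithelia need, and E-cadherin (*Cdh1*) joins cells through catenins to actin. Cell layers of the corneal epithelium held together in this way form part of the barrier of the eye surface.

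The 4 desmosomal cadherin genes lie together on mouse chromosome 18, in the order *Dsc3*, *Dsc2*, *Dsg3*, *Dsg2*. In the GRCm38.p6 annotation the other members lie apart, with *Dsp* at chr13:38151294-38198577 on the plus strand, *Jup* at chr11:100368856-100397839 on the minus strand, *Pkp1* at chr1:135871394-135919207 on the minus strand, *Pkp3* at chr7:141078229-141090511 on the plus strand, *Perp* at chr10:18845071-18857073 on the plus strand and *Cdh1* at chr8:106603350-106670247 on the plus strand. The tables hold 1 value per gene, summed over its exons, and give no coordinates. *Dsg2* overlaps 2 other annotated genes, *Gm16090* and *Gm46630*, and whether strand was used when reads were assigned is not settled, so its reads may include theirs. No other member overlaps an annotated gene.

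The cornea libraries held 10354125 to 14681223 counted reads each, and the conjunctiva libraries 10726717 to 14433441. Values are normalized counts, the reads of a gene divided by the size factor of its library. The lowest member value in any library was 397 normalized counts (*Dsg3*, conjunctiva CR 3), against 2.27 to 3.37 for the 3 reads that a count of 0 allows. Not all markers of the labelled tissues lay apart between them. *Krt12*, the corneal keratin gene, lay between 15024 and 29639 CPM (reads of a gene scaled to an equal total in every library) in the cornea libraries, against 36.2 to 439 CPM in conjunctiva libraries. The goblet cell mucin gene *Muc5ac* lay between 174 and 486 CPM in the conjunctiva, against 0 to 3.73 CPM in cornea libraries. The ranges of *Tkt*, *Aldh3a1* and *Pax6* also lay higher in the cornea, and those of *Tff1* and *Agr2* in the conjunctiva. The ranges of the cornea marker *Clu* and of the conjunctiva markers *Krt4*, *Krt13* and *Krt19* overlapped. *Krt13* had the higher mean in the cornea (2415 CPM, against 1830 in the conjunctiva). Libraries differed in the share of listed genes with no reads, with 38.7% to 47.6% for the cornea and 33.6% to 40.1% for the conjunctiva. Cornea AL 1 stood apart in 2447 normalized counts of *Pip*, a gene of gland secretions that was at most 4.09 in the CR cornea libraries. The summed level of the 4 skeletal muscle markers in the conjunctiva ran from 9226 (AL 3) to 87164 normalized counts (CR 3), against 0 to 37.2 in the cornea.

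All 10 members were abundant in both tissues, and the mix of members differed between them. The tables of the 2 tissues were scaled apart, so tissue levels are set side by side as CPM, without a test. The library ranges lay higher in the cornea for 8 members and higher in the conjunctiva for *Dsg2*, and those of *Cdh1* overlapped. How often the ranges of all other genes lie apart between the tissues was not computed, so this is not read as particular to the members. *Dsc3* had the widest gap on the corneal side, with a mean of 529 CPM in the cornea (451 to 671 over 10 libraries) and 152 in the conjunctiva (112 to 180 over 9 libraries), a ratio of 3.48. The ratio of the mean CPM, cornea over conjunctiva, was 3.02 for *Pkp3*, 2.77 for *Dsp*, 2.48 for *Dsg3*, 2.31 for *Perp*, 2.13 for *Jup*, 2.10 for *Pkp1* and 1.57 for *Dsc2*. *Cdh1* stood at 778 CPM in the cornea and 816 in the conjunctiva. *Dsg2* went the other way, with 129 CPM in the cornea (74.1 to 208) and 306 in the conjunctiva (212 to 519), a ratio of 2.36 in favour of the conjunctiva. The conjunctiva samples also held other tissue layers. The summed fibroblast markers lay between 27222 and 61225 normalized counts there and between 692 and 2486 in the cornea, and their part in the tissue contrast was not tested. In bulk samples such as these, fewer cells of a type and less RNA per cell cannot be told apart.

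**Figure D1:**
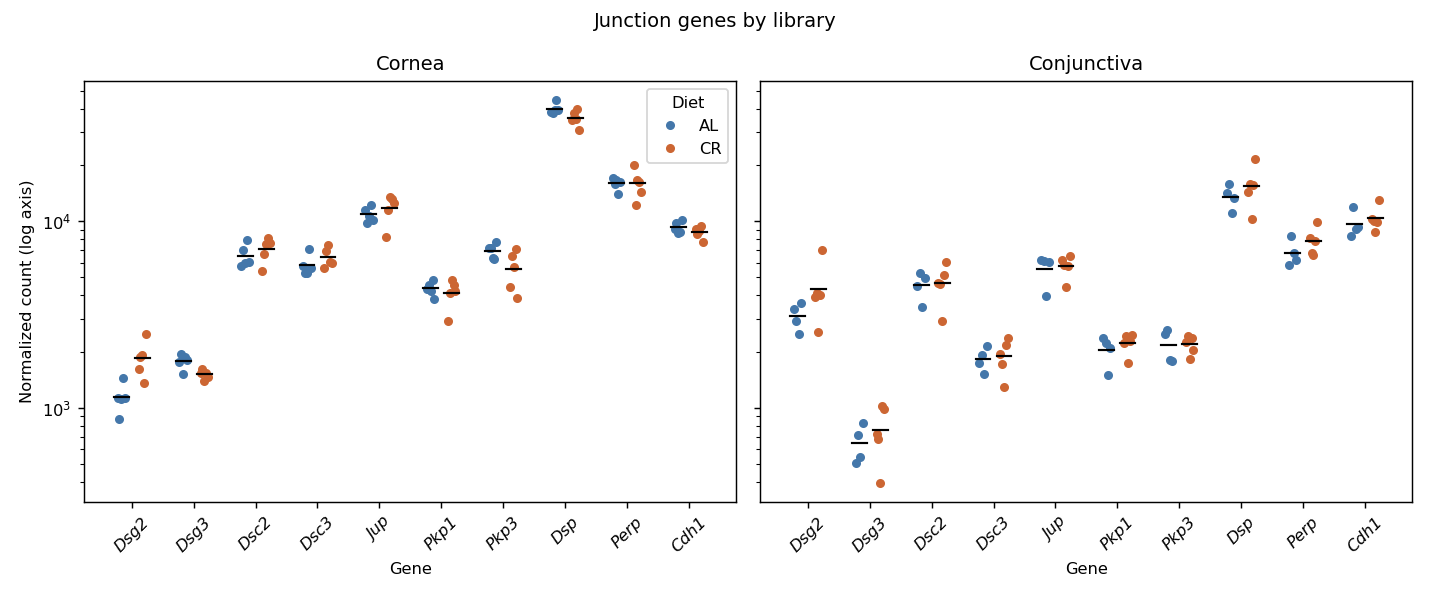
Normalized counts (log axis) of the 10 junction genes in each cornea library (left) and conjunctiva library (right), with blue points for AL, orange points for CR and a black bar for the group mean. *Dsg2* in the cornea is the pair of groups that stand farthest apart (mean 1136 under AL and 1853 under CR), and *Dsg2* and *Dsg3* are near each other in the cornea but far apart in the conjunctiva.

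If reads grow with transcript length, levels of different genes are compared per length, here as normalized counts per kilobase of the longest annotated transcript. In the cornea *Perp* was highest, at 8158 ± 1075 normalized counts per kilobase (SD, n = 10), and its range lay above that of every other member. *Dsp* followed at 3949.8 ± 380.5 and *Jup* at 3535 ± 507, then *Pkp3* (2131), *Cdh1* (2028), *Dsc2* (1468), *Dsc3* (1144) and *Pkp1* (909.6), each overlapping its neighbour. *Dsg3* and *Dsg2*, at 265 and 259 normalized counts per kilobase, lay below all of these and were not separated from each other. In the conjunctiva *Perp* was again highest per kilobase (3768 ± 657, n = 9), followed by *Cdh1* (2263), *Jup* (1766), *Dsp* (1521), *Dsc2* (997), *Pkp3* (748), *Dsg2* (657.5), *Pkp1* (459) and *Dsc3* (350.3). All of these overlapped their neighbours except that *Perp* lay above *Cdh1*. *Dsg3* was lowest in the conjunctiva, at 114 ± 33.7 normalized counts per kilobase, below the whole range of *Dsc3*. If the libraries were primed from the poly(A) tail, as the study's methods describe, reads do not grow with length. Without the division *Dsp* came first in both tissues, with a mean of 37887 normalized counts in the cornea and 14593 in the conjunctiva, and *Dsg3* and *Dsg2* stayed last in the cornea.

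The make-up of each junction family was also read within each library, as the share of the family's summed level per kilobase. These shares were chosen after the values were seen and are given as a description. *Dsg1c* (at most 0.654 CPM in any library) and *Dsg4* (at most 1.19 CPM) were left out. In the cornea the desmoglein level was divided among *Dsg1a* (36.4% ± 4.11, SD, n = 10), *Dsg1b* (26.2% ± 3.30), *Dsg3* (18.97% ± 2.54) and *Dsg2* (18.5% ± 6.26). In the conjunctiva *Dsg2* alone made up 82.0% ± 2.96 (n = 9) and *Dsg3* 14.6% ± 2.80. The desmoglein 1 genes, markers of differentiated layers, accounted for 0.758% (*Dsg1a*) and 2.69% (*Dsg1b*) there. *Dsg1a* and *Dsg1b* are close paralogs whose reads the counting may have split, so each of their shares is uncertain. By reads alone, without the division by length, the corneal shares were 38.6% for *Dsg1a*, 19.4% for *Dsg1b*, 22.0% for *Dsg3* and 19.9% for *Dsg2*, and *Dsg2* held 81.7% in the conjunctiva. *Dsg1a* lay between 2164 and 3519 normalized counts in cornea libraries and between 12.3 and 62.1 in those of the conjunctiva.

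Among the desmocollins, *Dsc2* and *Dsc3* shared the corneal level nearly evenly (56.1% ± 3.13 and 43.8% ± 3.18 per kilobase, n = 10), and *Dsc2* led in the conjunctiva with 73.7% ± 1.26 against 26.0% ± 1.38 (n = 9). By reads alone *Dsc2* held 52.6% in the cornea and 70.9% in the conjunctiva. *Dsc1* made up at most 0.679% in any library. Among the plakophilins, *Pkp3* held 69.5% ± 4.67 in the cornea and 60.1% ± 2.95 in the conjunctiva, and *Pkp1* 30.2% and 36.9%. *Pkp2*, the plakophilin of heart and simple epithelia, held 0.255% and 2.95%. By reads alone *Pkp3* held 58.9% and *Pkp1* 40.8% in the cornea, and the pair was nearly even in the conjunctiva (49.3% and 48.3%). In a sum of *Cdh1*, P-cadherin (*Cdh3*) and N-cadherin (*Cdh2*) alone, *Cdh1* made up at least 97.3% in every library. *Cdh3* held at most 2.59% and *Cdh2* at most 0.246%. Other cadherin genes were not part of this sum, such as *Cdh5*, with means of 95.8 (AL) and 94.5 (CR) normalized counts in the conjunctiva.

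**Figure D2:**
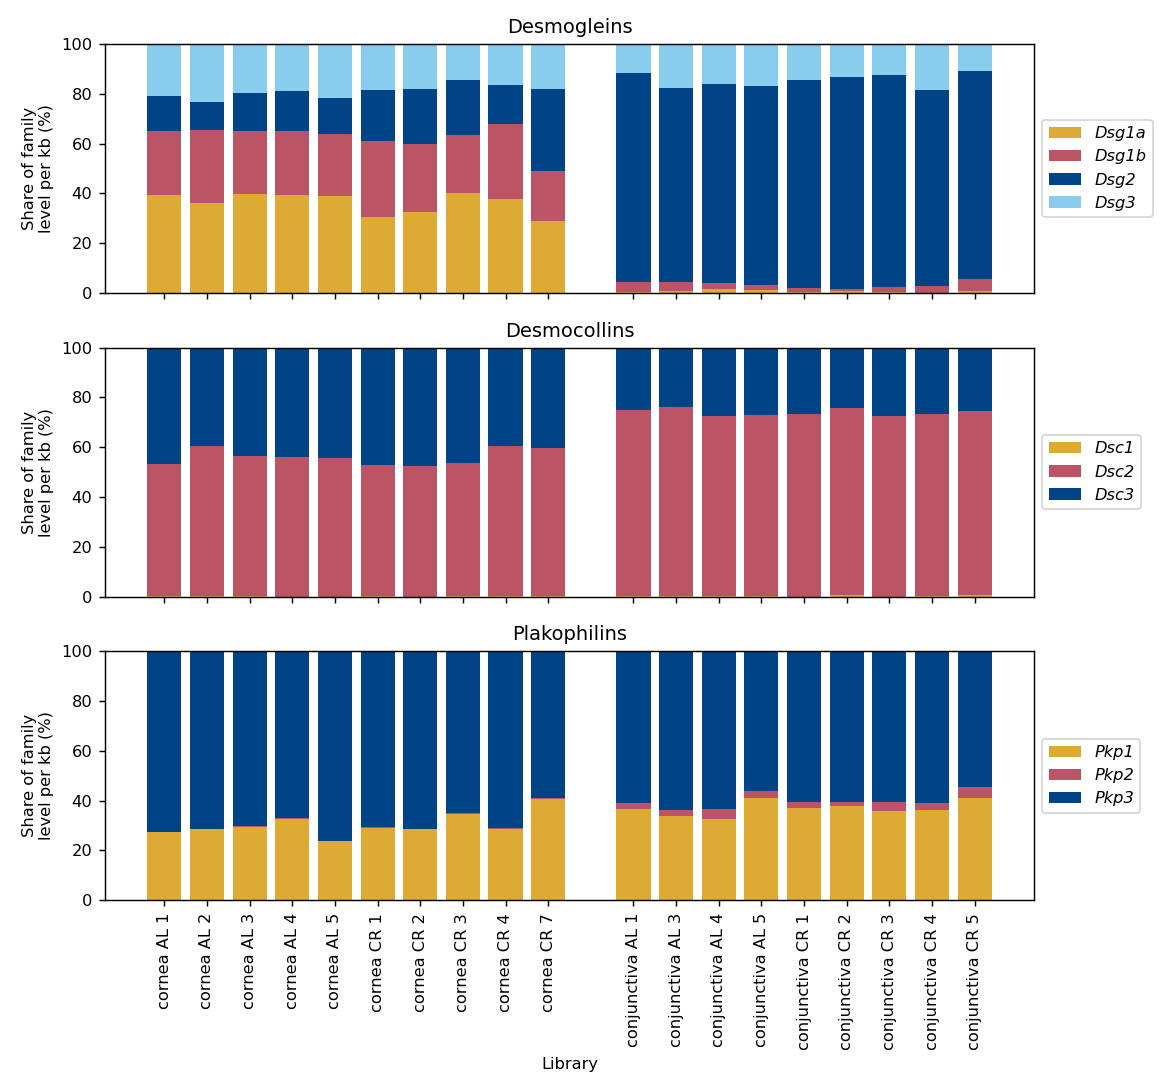
Share (%) of the summed level per kilobase held by each desmoglein, desmocollin and plakophilin gene in each of the 19 libraries, 1 stacked bar per library. The desmoglein bars change from a 4-gene mix in the cornea to 82.0% *Dsg2* on average in the conjunctiva, and the desmocollin bars shift towards *Dsc2*.

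The first diet comparison asked whether CR changed the junction genes of the cornea. Of the 10 members, 1 was called changed (limma, Benjamini-Hochberg adjusted p under 0.05 and fold over 1.5), where 1.22% of the 12278 genes tested were called. That gene was *Dsg2*, which rose. An unadjusted p under 0.05 was reached by 1 member with a higher value under CR (8.52% of all genes tested) and by 2 with a lower value (9.55% of all genes tested). The AL and CR libraries overlapped for all 10 members, while 2.08% of all genes tested had every CR library above every AL library and 1.89% every CR library below. The log2 change was above 0 for 4 members and below 0 for 6, and their median was −0.05, beside −0.03 over all genes tested. These signs moved with the scaling, with 5 members above 0 after quantile normalization and 2 above 0 in a fit with a covariate for the zero share (the part of listed genes at 0 in each library). Of the 8 macrophage markers, 5 were tested in the cornea. All 5 had log2 changes below 0, and *C1qa* was called lower (log2 change −1.58, limma adjusted p = 0.0467). The others had limma adjusted p-values from 0.404 to 0.836. The mean of *C1qc* was 22.6 normalized counts under CR and 20.7 under AL. The summed level of all 8 did not overlap between diets, with 319 to 416 normalized counts under AL and 207 to 311 under CR. The summed fibroblast markers overlapped (1122 to 2101 under AL and 692 to 2486 under CR). The part of these cells in the members' values was not tested. Of the 6 conjunctiva markers, 5 were tested in the cornea, 4 with log2 changes above 0 and 1 below 0, and 0 were called. *Krt4* (log2 change 0.96, limma adjusted p = 0.137) and *Agr2* (1.05, limma adjusted p = 0.259) reached an unadjusted p under 0.05. *Tff1* had a log2 change of −0.74. The summed level of all 6 overlapped between diets. Whether conjunctiva cells in the scrapings had a part in the members' values, *Dsg2* included, was not tested.

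*Dsg2*, the desmoglein found in simple as well as stratified epithelia, measured 1128, 866, 1109, 1451 and 1126 normalized counts in cornea AL 1 to AL 5. Under CR it measured 1611, 1874, 1927, 1362 and 2489 in CR 1, CR 2, CR 3, CR 4 and CR 7. The groups overlapped only in that AL 4 lay above CR 4. The mean was 1136 ± 208 under AL and 1853 ± 421 under CR (SD, n = 5 each), which is a log2 change of 0.70 ± 0.15 (SE, 95% confidence interval 0.37 to 1.02, limma adjusted p = 0.033). This call rested on several libraries. It was lost without AL 1, AL 2, AL 3, AL 5, CR 2 or CR 3, with adjusted p-values from 0.0828 to 0.106 and log2 changes from 0.60 to 0.70, and without CR 7 the log2 change of 0.58 was under the fold limit (limma adjusted p = 0.0436).

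The share of genes with no reads varied with *Dsg2* across the cornea libraries. AL 4, with the highest *Dsg2* value of the AL libraries, had 45.2% of listed genes at 0, against 38.7% to 40.7% in the other AL libraries, and CR 7, the highest of all, had 47.6%. CR 2, CR 3 and CR 4 had 46.1%, 45.6% and 42.7%, so 4 of the 5 CR libraries lay above 4 of the 5 AL libraries. CR 1 had an AL-like share of 39.9% and a *Dsg2* value above all 5 AL libraries. After the diet means were removed, *Dsg2* and this share correlated at r = 0.81 over the 10 libraries, and each pair of values comes from the same library. With the share as a covariate the log2 change of *Dsg2* was 0.38 and was no longer called (limma adjusted p = 0.231), a fit added after the data were seen.

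*Dsg3*, the desmoglein of basal and lower layers in many stratified epithelia, measured 1769, 1940.2, 1508, 1865 and 1813 normalized counts in AL 1 to AL 5 of the cornea. In CR 1, CR 2, CR 3, CR 4 and CR 7 it measured 1543, 1616, 1393, 1539.9 and 1470.2. AL 3 lay among the CR libraries and the other 4 AL libraries lay above all of them. The log2 change of −0.23 ± 0.10 (SE) did not pass adjustment (limma adjusted p = 0.242).

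Since the log2 changes of the 2 genes lay on opposite sides of 0, their ratio was also read within each cornea library. This ratio was chosen after the values were seen and carries no test. *Dsg2* over *Dsg3* per kilobase was 0.687, 0.481, 0.792, 0.838 and 0.669 in AL 1 to AL 5, so by this length *Dsg3* was the higher of the pair in every AL library. It was 1.12, 1.25, 1.49, 0.953 and 1.82 in CR 1, CR 2, CR 3, CR 4 and CR 7, above every AL library and over 1 in 4 of the 5. How often ratios of other gene pairs lie apart between the diets was not computed. AL 4 and CR 7, with the highest ratio of their groups, also had the largest share of genes at 0 in their groups (45.2% and 47.6%). CR 1 had a share of 39.9%. The part of this share in the ratio was not tested. Dividing by another length rescales all libraries alike, so the gap between the diets does not depend on it, but the side of 1 does. With the length of all annotated exons joined, the ratio was over 1 in 2 of the 5 CR libraries (0.881, 0.979, 1.17, 0.747 and 1.43) and in 0 of the 5 AL libraries. In the conjunctiva the ratio lay between 4.37 and 7.23 in the 4 AL libraries and between 4.27 and 7.73 in the 5 CR libraries, and the groups overlapped. The share of the desmoglein level held by *Dsg2* in the cornea was 14.3% ± 1.84 under AL and 22.7% ± 6.37 under CR (SD, n = 5 per diet).

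The desmocollin genes gave no call in the cornea. *Dsc2* had a mean of 6528 ± 913 normalized counts under AL and 7069 ± 1054 under CR (log2 change 0.11, 95% confidence interval −0.14 to 0.37), and *Dsc3* 5804 ± 765 and 6400.4 ± 769 (0.14, −0.09 to 0.37). AL 4 was the highest AL library for both, at 7898 for *Dsc2* and 7119 for *Dsc3*. CR 1 was the lowest CR library for both, at 5431 and 5587.

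Of the plaque genes, *Pkp3* had the lowest unadjusted p in the cornea. It measured 7166, 7148, 6369, 6256 and 7696 normalized counts in AL 1 to AL 5, and 4456, 6492, 5675, 7061 and 3872 in CR 1, CR 2, CR 3, CR 4 and CR 7. CR 1, CR 3 and CR 7 lay below all AL libraries, and CR 2 and CR 4 lay among them. The log2 change was −0.36 ± 0.14 (SE, limma adjusted p = 0.198). *Pkp1*, which encodes the plakophilin of upper layers in stratified epithelia, had a mean of 4363 ± 372 under AL and 4131 ± 725 under CR, with CR 1 (2927) below all others.

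Plakoglobin and desmoplakin, the core of the plaque, did not pass the test in the cornea either. *Jup* measured between 9797 and 12241 normalized counts under AL (median 10683) and between 8253 and 13467 under CR (median 12460.1), a log2 change of 0.10 (95% confidence interval −0.17 to 0.36). *Dsp* measured between 38144 and 44471 under AL (median 39280.1) and between 30707 and 39846 under CR (median 35235), a log2 change of −0.16 (95% confidence interval −0.37 to 0.04). For *Dsp*, 4 of the 5 CR libraries lay below all AL libraries and CR 4 lay above 4 of the 5.

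The remaining 2 members were the closest to no difference in fold. *Perp* had a mean of 15928 ± 1202 normalized counts under AL and 15922 ± 2908 under CR (log2 change −0.02, 95% confidence interval −0.26 to 0.23). *Cdh1* had a mean of 9268 ± 626 and 8703 ± 657 (−0.09, −0.29 to 0.11). *Perp* varied more among the CR libraries, from 12273 (CR 2) to 20106 (CR 1), than among the AL libraries, from 13932 to 16982.

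**Figure D3:**
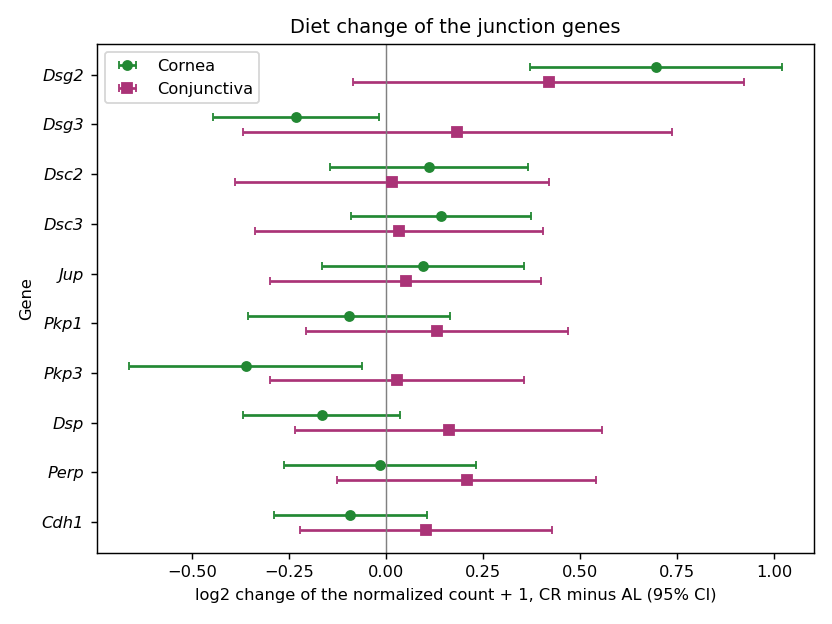
Log2 change (CR minus AL) of each junction gene in the cornea (green circles) and the conjunctiva (purple squares) with its 95% confidence interval from limma. *Dsg2* in the cornea (0.70) is the 1 called change, all 10 conjunctiva points lie right of 0 (5 of them after quantile normalization and 4 in a fit with the zero share as covariate), and all 10 conjunctiva intervals include 0.

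The same question was put to the conjunctiva, where 0 of the 10 members were called by limma and 0.359% of the 13929 genes tested were. At an unadjusted p under 0.05, 0 members were higher (4.53% of all genes tested) and 0 were lower (4.87%). The log2 change was above 0 for all 10 members, with a median of 0.12, beside −0.02 over all genes tested, of which 6688 were above 0. This common sign depended on the scaling, with 5 members above 0 and a median of −0.02 after quantile normalization, 6 and 0.03 with voom on the recovered reads (all genes −0.11), and 4 and −0.02 in a fit with the zero share as covariate. Without AL 4 it was also 5 of the 10. The AL and CR libraries overlapped for all 10, while 1.92% of all genes tested lay wholly higher under CR and 1.95% wholly lower. limma voom on the recovered reads also called 0 members.

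*Dsg2* again had the largest log2 change among the members. It measured 3386, 2911, 2482 and 3652 normalized counts in conjunctiva AL 1, AL 3, AL 4 and AL 5. In CR 1 to CR 5 it measured 3930.3, 4137, 2540.2, 4039.8 and 7042. All CR libraries except CR 3 lay above all AL libraries. The log2 change was 0.42 ± 0.23 (SE, 95% confidence interval −0.08 to 0.92, limma adjusted p = 0.61), without CR 5, the highest library, it was 0.23, and without CR 3, the library with the most muscle marker reads, it was 0.59 (limma adjusted p = 0.172). It was 0.31 after quantile normalization, 0.33 with voom and 0.09 in a fit with the zero share as covariate (limma adjusted p = 0.909).

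*Dsg3* measured 505, 717, 544 and 825 normalized counts in conjunctiva AL 1, AL 3, AL 4 and AL 5 and 721, 683, 397, 1019 and 982 in CR 1 to CR 5, so that the CR libraries reached past the AL libraries at both ends. Its log2 change was 0.18 ± 0.26 (SE). *Perp* had a log2 change of 0.21 ± 0.16 and *Dsp* of 0.16 ± 0.19. *Dsp* measured 14117, 15782, 10998 and 13262 in the 4 AL libraries and 14237, 15753, 10241, 15534 and 21409.9 in the 5 CR libraries, with both the lowest and the highest value under CR.

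The other 6 members had log2 changes from 0.02 (*Dsc2*) to 0.13 (*Pkp1*) in the conjunctiva. Their means were 4549 and 4668 normalized counts for *Dsc2* (AL and CR), 1829.7 and 1899 for *Dsc3*, 5573 and 5731 for *Jup*, 2046 and 2223 for *Pkp1*, 2170.2 and 2192 for *Pkp3* and 9632 and 10339 for *Cdh1*. The 95% confidence intervals of these 6 reached from −0.39 at the lowest to 0.47 at the highest. All 6 included 0, so a log2 change of either sign was not excluded for these genes.

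Members varied together from library to library in the conjunctiva. After the diet means were removed, all 45 pairs of members correlated positively over the 9 libraries, with a median r of 0.68 and a range from 0.17 (*Dsg2* and *Pkp3*) to 0.95 (*Jup* and *Pkp1*). By normalized counts CR 3 was the lowest library for *Dsg3*, *Dsc2*, *Dsc3*, *Dsp* and the mean of all 10 members. CR 5 was the highest by normalized counts for *Dsg2*, *Dsc2*, *Dsc3*, *Dsp*, *Jup*, *Pkp1*, *Perp* and *Cdh1*. As CPM it stayed highest for *Dsg2*, *Dsc2*, *Dsp* and *Perp*. *Jup* and *Pkp1* were then highest in AL 1, *Dsc3* in AL 5 and *Cdh1* in AL 3. CR 3 also held the most skeletal muscle marker reads (87164 normalized counts summed) and CR 5 nearly the fewest (10185). The members' mean correlated with the skeletal muscle markers at r = −0.78, most closely for *Cdh1* (−0.97) and *Perp* (−0.94), and with the share of genes at 0 at r = 0.80. It correlated at 0.89 with the hemidesmosome genes and at 0.85 with the epithelial keratins and regulators, the other epithelial lists. Macrophage markers went with it at −0.71 and fibroblast markers at −0.35. These correlations are over 9 libraries, and the values of each pair come from the same library and its 1 size factor. The skeletal muscle markers spanned 9226 to 42780 under AL and 10185 to 87164 under CR. With the muscle marker level as a covariate, a fit added after the data were seen, the log2 change of *Dsg2* was 0.54 (limma adjusted p = 0.181) and 0 members were called.

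Fibroblast and macrophage markers had lower values under CR in the conjunctiva, mostly without a call. Log2 changes were also below 0 for 5 of 5 endothelial and 2 of 2 melanocyte markers tested. They were above 0 for 4 of 4 skeletal muscle markers and for *Aqp5*, the 1 gene tested of the lacrimal gland list. Of these 4 lists 0 genes were called in the conjunctiva. *Aqp5* averaged 1409 normalized counts in the AL conjunctivas and 44377 in the AL corneas, so it is not read as a sign of lacrimal gland here. In the cornea it was called lower (log2 change −0.61, limma adjusted p = 0.0476). The log2 changes of the fibroblast markers were below 0 for 9 of 9 genes tested, of which 2 (*Col1a1* and *Col3a1*) were called, and their summed level lay between 41021 and 61225 normalized counts under AL and between 27222 and 52722 under CR. Those of the macrophage markers were below 0 for 8 of 8, of which 0 were called, with sums of 3342 to 4361 under AL and 2153 to 3346 under CR, and both sums overlapped between the diets. Their part in the members' positive log2 changes was not tested.

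In the cornea the members were less alike. The median r over the 45 pairs was 0.21 over the 10 libraries, 27 pairs were positive, and the range ran from −0.78 (*Dsg2* and *Cdh1*) to 0.91 (*Jup* and *Pkp1*). A subset varied together, with r = 0.85 between *Dsc2* and *Pkp1* and 0.74 between *Dsc2* and *Jup*. *Perp* went against the mean of the other members (r = −0.66), and *Dsg2* (−0.16), *Cdh1* (−0.04) and *Dsg3* (0.01) were near 0. *Perp* and *Dsg2* stood at opposite ends in their correlation with the share of genes at 0 (−0.79 and 0.81). Of the 5 endothelial markers, *Cdh5*, *Tek* and *Emcn* had at most 3 reads in every cornea library, and the sum, which rests on *Kdr* and *Pecam1*, lay between 5.31 and 44.8 normalized counts under AL and between 6.13 and 50.4 under CR.

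**Figure D4:**
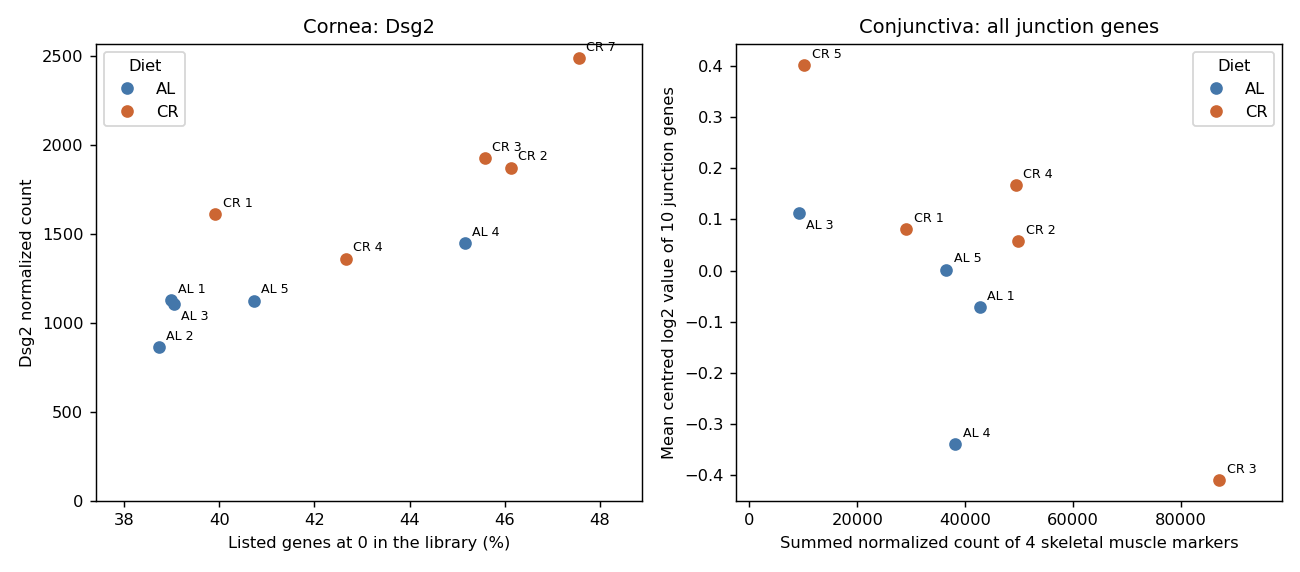
Left, the normalized count of *Dsg2* in the 10 cornea libraries against the share (%) of listed genes with no reads. Right, the mean centred log2 value of the 10 junction genes in the 9 conjunctiva libraries against the summed normalized count of 4 skeletal muscle markers, with blue points for AL and orange for CR. *Dsg2* is highest in CR 7, which has 47.6% of genes at 0, and the junction genes are lowest in conjunctiva CR 3, which has the most muscle marker reads (87164).

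Of the members, *Jup* and *Dsp* had promoters in the RefSeq table used here (build GRCm38.p6). They are shown because no other member had one there. The 2 genes, on different chromosomes, correlated at r = 0.81 over the 9 conjunctiva libraries, beside a median of 0.68 over all 45 pairs of members. Over the 10 cornea libraries r was 0.24, beside a median of 0.21. A link between the promoters and these correlations was not tested. Each window runs from 250 bases before to 50 bases after the start in that table, which for *Jup* lies just inside the gene span given above, 5′ to 3′ on the strand of the gene, with GGGCGG, the core of the GC box that Sp factors bind, and its reverse complement in capitals. The *Dsp* window is chr13:38151044-38151343 on the plus strand and the *Jup* window chr11:100397741-100398040 on the minus strand.
Dsp: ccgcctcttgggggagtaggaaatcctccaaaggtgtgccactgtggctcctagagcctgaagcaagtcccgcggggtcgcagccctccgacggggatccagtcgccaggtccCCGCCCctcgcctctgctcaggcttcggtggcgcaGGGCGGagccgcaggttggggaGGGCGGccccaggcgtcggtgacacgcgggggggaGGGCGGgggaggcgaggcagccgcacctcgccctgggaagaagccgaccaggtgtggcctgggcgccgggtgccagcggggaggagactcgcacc
Jup: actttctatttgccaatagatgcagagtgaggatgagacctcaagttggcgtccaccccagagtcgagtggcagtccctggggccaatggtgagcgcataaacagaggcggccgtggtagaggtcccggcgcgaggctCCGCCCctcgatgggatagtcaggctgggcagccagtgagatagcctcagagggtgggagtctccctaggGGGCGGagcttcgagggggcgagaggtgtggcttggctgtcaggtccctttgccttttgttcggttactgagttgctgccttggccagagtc
The *Dsp* window held 4 matches and 73% G and C, and the *Jup* window 2 matches and 60.7% G and C. Of all 32851 promoters in the table, 35.7% held at least 1 match and 4.65% at least 4, and the median G and C content was 52.7%. A TATA box (TATAAA on either strand, in 13.6% of all promoters) and the Grainyhead-like site AACCGGTT (in 0.146%) were in neither window.

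The 5 genes outside all lists whose pattern over libraries was most like the members' mean were *Cep170b*, *Krt6a*, *Fhdc1*, *Eif5a* and *Muc15*. They were chosen by the mean of r in the cornea (10 libraries) and r in the conjunctiva (9 libraries) among 11855 genes. *Krt6a*, a keratin gene of stratified epithelia, correlated with the members' mean at 0.85 in the cornea and 0.95 in the conjunctiva. *Muc15*, a membrane mucin gene, reached 0.91 and 0.86. *Cep170b* had the highest mean r, at 0.91.

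The diet changes of the 2 tissues were then compared gene by gene. No member differed between the tissues (0 of 10 at an adjusted p under 0.05, and 0 at an unadjusted p under 0.05), where 0.0168% of the 11929 genes tested in both passed adjustment and 7.48% had an unadjusted p under 0.05. The difference for *Dsg2*, conjunctiva minus cornea, was −0.28 ± 0.28 (SE, 95% confidence interval −0.85 to 0.30, adjusted p = 0.85 from the 2 limma fits), so a difference between the tissues was not shown for it. The test treats the 2 tissues as independent, whereas by the study's methods several tissues were taken from each mouse. Over pairs of libraries with a shared title the *Dsg2* difference was −0.26 (limma adjusted p = 0.944). *Pkp3* had the smallest p, with a difference of 0.39 ± 0.21 (unadjusted p = 0.0727 from the limma fits).

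The remaining genes of the same junctions gave no call in either tissue. Of the other desmosome genes, 6 of 8 passed the filter in each tissue, with 3 above 0 and 3 below 0 in the cornea and 2 above and 4 below in the conjunctiva. In the cornea *Dsg1a* had a log2 change of −0.14 ± 0.13 and the plakin gene *Evpl* of −0.05 ± 0.11, and *Dsc1*, at a mean of 9.69 normalized counts under AL, could not be told from its spread (0.82 ± 0.92). In the conjunctiva *Ppl*, which encodes the plakin periplakin, had a log2 change of 0.32 ± 0.16, *Evpl* of −0.18 ± 0.15 and *Dsg1a* of −0.58 ± 0.54.

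Of the other adherens junction genes, 10 of 12 were tested in the cornea and 11 in the conjunctiva. *Nectin2*, a nectin adhesion gene, measured between 1024 and 1210.2 normalized counts in the AL corneas and between 718 and 1008 in the CR corneas, with no overlap (log2 change −0.40 ± 0.12, limma adjusted p = 0.0956). *Nectin4* had a log2 change of 0.32 ± 0.10 (limma adjusted p = 0.130) and *Nectin1* of −0.24 ± 0.14. In the conjunctiva *Cdh3*, the P-cadherin gene, measured 171, 189.6, 157 and 243 normalized counts under AL and 131, 94.2, 74.3, 117 and 133 under CR, again with no overlap (log2 change −0.80 ± 0.24, limma adjusted p = 0.229). *Afdn*, the afadin gene, had a log2 change of 0.34 ± 0.15 and *Nectin1* of −0.29 ± 0.16 there. The genes of β-catenin (*Ctnnb1*), α-catenin (*Ctnna1*) and p120 catenin (*Ctnnd1*) had log2 changes between −0.18 and 0.12 in the cornea and near −0.11 in the conjunctiva.

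Hemidesmosomes fasten basal cells to the basement membrane rather than to each other, and 9 of 9 of their genes were tested in both tissues. In the cornea 8 were above 0, beside 5753 of the 12278 genes tested, and their median log2 change was 0.25. An unadjusted p under 0.05 was reached by 5 with a higher value under CR (8.52% of all genes tested) and by 0 with a lower value. Of the 9, 0 were called (1.22% of all genes tested). *Col17a1*, the collagen XVII gene, had a mean of 9645 ± 2069 under AL and 13564 ± 2345 under CR (0.50 ± 0.14 on the log2 scale, limma adjusted p = 0.0785). It was called without AL 4 (0.62) and with array weights (0.61, limma adjusted p = 0.0025). Without CR 1 its log2 change of 0.58 was under the fold limit (limma adjusted p = 0.0237). In the fit with the zero share as covariate it was 0.19 (limma adjusted p = 0.538). *Dst* had a log2 change of 0.32 ± 0.11 (limma adjusted p = 0.137) and *Itga6*, the α6 integrin gene, of 0.36 ± 0.12 (limma adjusted p = 0.152). In the conjunctiva 7 of 9 were above 0, beside 6688 of the 13929 genes tested, and 0 were called. Log2 changes there were 0.44 ± 0.15 for *Dst*, 0.44 ± 0.20 for *Itga6* and 0.35 ± 0.20 for *Col17a1*.

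Among the epithelial keratins and regulators, 1 of 12 was called in the cornea and 0 in the conjunctiva. *Grhl3*, a Grainyhead-like transcription factor gene of epithelial barrier formation, measured 139, 259, 186, 194 and 153 normalized counts in AL 1 to AL 5 of the cornea. It measured 373, 402, 414, 592 and 648 in CR 1, CR 2, CR 3, CR 4 and CR 7. Every CR library lay above every AL library, and the gene rose by a log2 change of 1.38 ± 0.19 (limma adjusted p = 8.9e-04). *Trp63*, the basal epithelial regulator gene, passed the adjusted p but not the fold limit (0.49 ± 0.12, limma adjusted p = 0.0468), and *Grhl1* had a log2 change of 0.27 ± 0.10 (limma adjusted p = 0.175). In the conjunctiva *Krt18*, a keratin gene of simple epithelia, had a log2 change of 0.67 ± 0.19 (limma adjusted p = 0.191), *Klf5* of 0.52 ± 0.22 and *Klf4* of 0.36 ± 0.16, while *Grhl3* measured 277 ± 78.4 under AL and 266 ± 62.7 under CR.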

How the data were processed

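RNA from 10 cornea and 9 conjunctiva samples was sequenced as single reads. The authors trimmed reads with cutadapt, aligned them to mm10 with STAR (the labels name GRCm39) and counted them with HTSeq on ROSALIND, scaling with DESeq2 size factors. Versions are not given in the sources used here. The labels name a stranded mRNA kit, whereas the methods describe oligo(dT) priming, so the library type is unsettled. The deposited values are log2 of the normalized count plus 1, and the authors scaled each tissue on its own. All columns were matched to a sample (0 unmatched), and 5 of 24557 features repeated a symbol and were left out.

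From these, normalized counts and whole reads were computed (100% came out whole within 0.05 reads), and the floor of 3 reads covers counting error only. The diet comparison used limma 3.58.1 (statmod 1.5.0, R 4.3.3; trend and robust moderation) on log2(normalized count + 1), for genes averaging at least 10, a scale that understates changes of low genes. Genes were called at a Benjamini-Hochberg adjusted p under 0.05 and a fold over 1.5. The tissue difference was tested per gene from both fits, using Satterthwaite degrees of freedom. Named genes were the members, each list's called genes or those with the smallest p (up to 3), and the 5 genes most like the members. The members and lists were chosen with earlier results of these data known. Count models were not run, since the deposited unit is log2, and limma voom on the recovered reads took their place. The procedure was tested on simulated data. Coordinates, lengths and promoters are from GRCm38.p6 (GENCODE and RefSeq). Labels do not say which mice the numbered samples came from, so p-values measure the spread between samples. The alternatives changed the pseudocount (0.5 or 10) or the filter (none, or 50), or used quantile normalization, array weights, a replicate block, shared titles, covariates or all libraries but 1.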

Additional observations from a re-analysis of the deposited data

Results flagged for a closer look

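Within the diet groups of 4 or 5 libraries, 3 of 40 member groups held a library whose gap to its nearest neighbour exceeded Dixon's 95% critical value, where chance gives about 1 in 20 groups. *Dsc3* in cornea AL 4 measured 7119 normalized counts, with a gap of 0.733 of the range of its group, and *Dsp* in cornea AL 4 measured 44471, with a gap of 0.78. AL 4 is the AL library with 45.2% of listed genes at 0. *Jup* in conjunctiva AL 4 was the lowest of its group at 3983 normalized counts, with a gap of 0.934. No member differed between the tissues in its diet change by the test of the difference.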

How the results depend on the processing

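The *Dsg2* call in the cornea held under both pseudocounts, both filters, quantile normalization, array weights, the replicate block and voom (log2 change 0.68 to 0.72), and 0 members were called in the conjunctiva under any alternative run. With a covariate for the share of genes at 0, the cornea had 0 members called, and leaving out a library gave 0 to 1. The number of genes called in the cornea was 150, 705 with array weights, 62 with that covariate, and 53 to 536 without a library (53 without AL 5, 536 without AL 4). In the conjunctiva it was 50, 149 with array weights, 214 with the muscle marker level as a covariate, and 26 to 127 without a library (26 without CR 2, 127 without CR 3). The number of genes that differed between tissues was 2, 3 with quantile normalization, 18 with array weights, 4 with voom, 0 with the zero-share covariate, 0 with pairs of libraries sharing a title, and 0 to 7 without a library. The members' signs moved with the scaling. In the conjunctiva 10 were above 0, and 5 after quantile normalization, 6 with voom, 4 with the zero-share covariate and 5 to 10 without a library (5 without AL 4). For single genes no sign change touched a called value, and the cause of these shifts was not tested. AL and CR libraries with the same number did not deviate together (r from −0.30 to 0.29 for the cornea, −0.06 to 0.05 for the conjunctiva). With the replicate block the log2 change of *Dsg2* in the cornea was 0.70 (limma adjusted p = 0.0378) and in the conjunctiva 0.42 (limma adjusted p = 0.587). With 4 or 5 libraries a group, changes within the printed confidence intervals were not excluded, and no detection limit was computed.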
